A study of Mus musculus with 10 samples.

Results

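The data gave transcript levels of 8 helix-loop-helix (HLH) genes in mouse hematopoietic stem cells (HSCs). These were the inhibitor genes Id1, Id2 and Id3, the E protein genes Tcf3, Tcf4 and Tcf12, and the basic HLH (bHLH) genes Tal1 and Lyl1. They were chosen by name, and all 8 were found among the 20270 genes of the RNA sequencing table. The table held 10 libraries in 4 groups: Id1-/- stressed (KO stressed, 2 libraries), Id1+/+ stressed (WT stressed, 2), Id1-/- normal (KO normal, 3) and Id1+/+ normal (WT normal, 3). Every group came from C57BL/6 bone marrow of recipients transplanted with lineage-negative donor marrow, from which HSCs were sorted by flow cytometry. The genotype is that of the donor marrow, and the labels give neither the structure of the Id1 allele nor the age of the animals. The sample labels place collection 4 weeks after transplantation and the series design places it at 6 weeks, and neither defines the words normal and stressed. The labels do not say whether libraries are separate animals, so p-values measure only the spread between libraries, which may be technical.

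E proteins bind E-box DNA through a basic region next to the HLH domain, and they do so as dimers with each other or with tissue-restricted bHLH proteins such as TAL1. Id proteins keep the HLH domain but lack the basic region, so an Id protein paired with an E protein cannot bind DNA. In blood cells this balance of Id and E proteins is known to influence B, T and dendritic cell fates, and TAL1 and LYL1 act with E proteins, LMO2, LDB1 and GATA factors in stem cells. The Id1 gene is known to be induced by bone morphogenetic protein (BMP) signalling through SMAD factors, and also by cytokines.

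The stretch coding for the dimerization domain is shown for the Id genes because it is the part the family shares, and because short reads from near-identical copies could be assigned to the wrong gene. The sequences are GENCODE vM21 coding sequence on GRCm38, given 5′ to 3′ on the coding strand, and capitals mark the bases that are the same in all 3 genes (80 of 126 bases).
Id1: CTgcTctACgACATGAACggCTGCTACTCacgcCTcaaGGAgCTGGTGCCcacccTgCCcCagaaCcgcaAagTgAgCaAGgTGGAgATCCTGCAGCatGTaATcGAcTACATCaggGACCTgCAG
Id2: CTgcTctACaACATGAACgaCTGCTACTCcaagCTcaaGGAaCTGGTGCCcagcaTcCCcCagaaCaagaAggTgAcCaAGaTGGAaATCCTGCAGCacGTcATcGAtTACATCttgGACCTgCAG
Id3: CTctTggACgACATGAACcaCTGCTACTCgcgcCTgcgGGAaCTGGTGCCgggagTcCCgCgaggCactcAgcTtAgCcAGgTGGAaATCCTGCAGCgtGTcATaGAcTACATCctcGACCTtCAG
Over this stretch Id1 shared 82.5% of bases with Id2 and 69.8% with Id3, and Id2 shared 70.6% with Id3. The longest run of bases without a mismatch between their transcripts was 11 bases for Id1 and Id2, 12 for Id1 and Id3, and 19 for Id2 and Id3.

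The corresponding stretch of Tal1 and Lyl1, which holds the bHLH domain, is shown because these genes are close paralogs. Capitals mark the bases that are the same in both (138 of 186 bases).
Tal1: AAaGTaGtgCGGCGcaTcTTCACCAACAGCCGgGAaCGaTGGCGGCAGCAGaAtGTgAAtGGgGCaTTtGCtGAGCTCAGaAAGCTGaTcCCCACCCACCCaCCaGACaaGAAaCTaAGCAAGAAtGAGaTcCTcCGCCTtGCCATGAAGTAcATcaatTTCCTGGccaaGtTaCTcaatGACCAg
Lyl1: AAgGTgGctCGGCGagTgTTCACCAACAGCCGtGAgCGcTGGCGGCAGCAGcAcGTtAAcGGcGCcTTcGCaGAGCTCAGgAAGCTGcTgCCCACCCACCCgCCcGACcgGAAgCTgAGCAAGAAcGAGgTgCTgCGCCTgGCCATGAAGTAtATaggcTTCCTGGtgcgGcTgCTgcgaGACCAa
The longest run without a mismatch between the Tal1 and Lyl1 transcripts was 14 bases. Among the E protein genes it was 23 bases for Tcf3 and Tcf4, 18 for Tcf3 and Tcf12, and 47 for Tcf4 and Tcf12.

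Values are log2 CPM, the log2 of reads per gene scaled to a common library total, after a quantile normalization that gives all libraries the same distribution. Depth was estimated at 25700000 to 33000000 reads per library, so that 1 CPM corresponded to 26 to 33 reads, and the 0-read value was -5.90. All 14 HSC marker genes were above 1 CPM in at least 2 libraries, among them Kit at 1350 to 1910 CPM and Procr at 58.1 to 112 CPM. Genes of the T and NK cell list summed to 12.7 to 26.6 CPM over the 10 libraries. By group this was 17.2 to 17.5 CPM in KO stressed and 18.6 to 20.5 in WT stressed libraries. In normal HSCs it was 12.7 to 23.8 CPM with the KO label and 24.5 to 26.6 with the WT label. Endothelial markers, which include genes that HSCs also express, summed to 600 to 603 CPM in KO stressed, 692 to 716 in WT stressed, 692 to 764 in KO normal and 724 to 752 in WT normal libraries. On a principal component analysis, library A of KO normal stood apart on the third component (100 against -31.3 to 12.9 for the others). The WT stressed libraries lay apart from each other on the second (83 and 20.3). In bulk RNA, fewer cells of a type and less RNA per cell cannot be told apart.

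Id1, the targeted gene, was higher in the libraries labelled KO than in those labelled WT. Id1 (ENSMUSG00000042745.9) lies on the plus strand of chromosome 2 at 152736251 to 152737410 (mm10). Its level was 9.06 and 8.44 CPM in KO-labelled stressed libraries, against 1.28 and 4.39 CPM in WT-labelled stressed libraries. In normal HSCs it was 13.2, 10.6 and 9.62 CPM with the KO label, against 1.35, 1.72 and 3.17 CPM with the WT label. All 5 KO-labelled libraries therefore lay above all 5 WT-labelled libraries, a separation in either direction that 2.63% of the 15143 genes tested showed. The difference of KO minus WT, averaged over both conditions, was 2.19 on the log2 scale (SE 0.358, 95% interval 1.41 to 2.98), or 4.57-fold, with a limma adjusted p of 0.013. In normal HSCs alone it was 2.50 (SE 0.453, adjusted p = 0.018), and in stressed HSCs alone it was 1.88 (SE 0.554, unadjusted p = 0.0059, adjusted p = 0.33). The test of KO against WT in normal HSCs was lost when KO normal A (adjusted p = 0.075), KO normal C (0.051), WT normal A (0.077) or WT normal B (0.077) was left out. The averaged test of Id1 was lost without KO stressed A (0.058) or KO stressed B (0.057). Gene totals do not show which bases of Id1 the reads cover, so they do not check whether a deleted part is transcribed. Whether the genotype labels were exchanged was not tested either, and an exchange would turn the sign of every genotype difference given here. Directions given for KO are those of the libraries labelled KO.

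The genotype differences of the other tested members were smaller. Of the 7 members tested, 1 (Id1) was called in normal HSCs, where 1.56% of all tested genes were called, and 1 (Id1) in the average over conditions, where the background was 1.07%. In stressed HSCs none of the 7 was called by limma against a background of 0.145%. There 1 (Id1) had an unadjusted p below 0.05, as did 1344 of the 15143 genes tested. The difference in the genotype effect between conditions called none of the 7 with limma (0.0198% of all genes). For it 1 (Tcf3) had an unadjusted p below 0.05, as did 1386 of the 15143 genes tested.

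**Figure D1:**
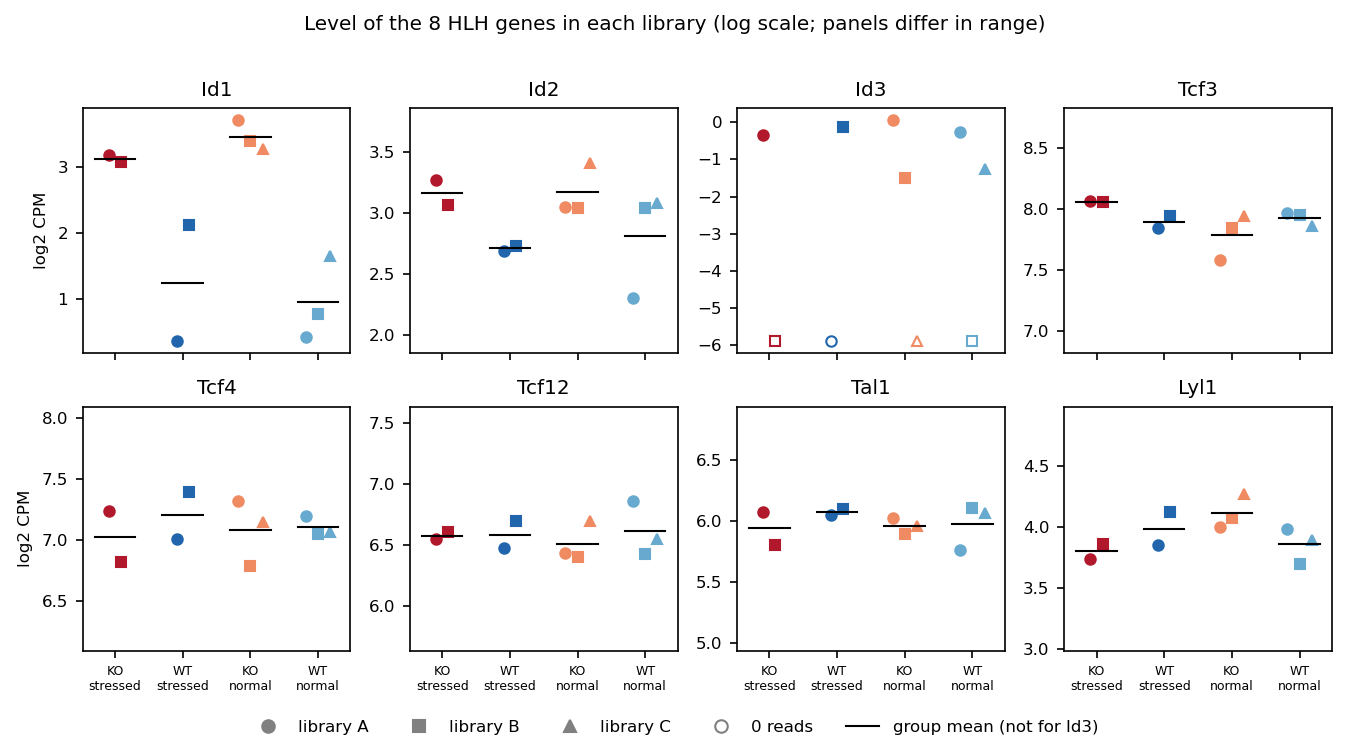
Log2 CPM of the 8 HLH genes in each library, by group, with a separate range on each log axis; marks are libraries, open marks are 0 reads and lines are group means (none for Id3). Id1 lies higher in all 5 libraries labelled KO (3.08 to 3.72) than in all 5 labelled WT (0.36 to 2.13), and the other genes overlap between genotypes when conditions are pooled.

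**Figure D2:**
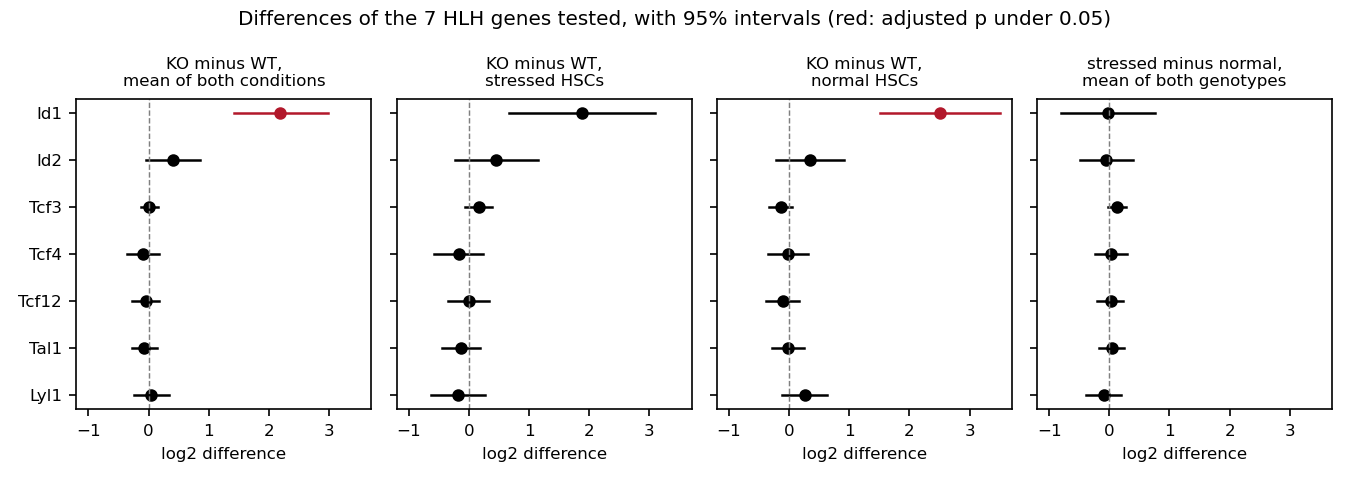
Log2 differences with 95% intervals from the limma fit for the 7 tested members, between genotypes (average, stressed, normal) and between conditions (average); red marks an adjusted p under 0.05. Id1 in normal HSCs and in the average over conditions lies furthest from 0, at 2.50 and 2.19.

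Id2, which in blood supports innate lymphoid and dendritic cell development, lies on the minus strand of chromosome 12 at 25093799 to 25097140. Its level was 9.64 and 8.32 CPM in KO stressed libraries, against 6.45 and 6.65 CPM in WT stressed libraries. In normal HSCs it was 8.26, 8.2 and 10.6 CPM with the KO label, against 4.94, 8.23 and 8.47 CPM with the WT label. The stressed groups did not overlap, as for 39.1% of all genes, and the normal groups did. Averaged over conditions the difference was 0.40 (SE 0.202, 95% interval -0.04 to 0.85, adjusted p = 0.43), and it did not pass the test.

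Id3, which restrains E proteins in lymphocytes, lies on the plus strand of chromosome 4 at 136143497 to 136145755 and was at the detection limit. Its estimated reads were 23 and 0 in KO stressed, 0 and 26 in WT stressed, 32, 11 and 0 in KO normal, and 24, 0 and 13 in WT normal libraries. It was above the log2 value of 0 in only 1 library and was the member not tested. With an average of 12.9 reads it was at 0 in 4 of 10 libraries, and 191 of 1046 genes (18.3%) with averages within 20% of it were at 0 in as many. With the filter on low values removed, its averaged KO minus WT difference was -0.03 (SE 1.76, adjusted p = 1).

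Per kilobase of merged exon, the 3 Id genes together amounted to 15.7% and 14.0% of the summed E protein genes in KO stressed libraries, against 5.6% and 9.52% in WT stressed libraries. In normal HSCs the percentages were 26.2%, 19.2% and 17.4% with the KO label, against 4.9%, 6.79% and 9.41% with the WT label. The groups did not overlap in either condition, a separation that 39.1% of all tested genes showed in stressed and 19.5% in normal HSCs. Without Id1 the sum was 5.65% and 4.5% in KO stressed, 3.95% and 4.39% in WT stressed, 6.77%, 5.39% and 6.0% in KO normal, and 3.34%, 4.72% and 5.42% in WT normal libraries. On the length of the principal transcript, the 3-gene sum was 12.4% and 11.2% in KO stressed, against 4.36% and 7.36% in WT stressed libraries. These are sums of transcript levels with no test, and protein was not measured.

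**Figure D3:**
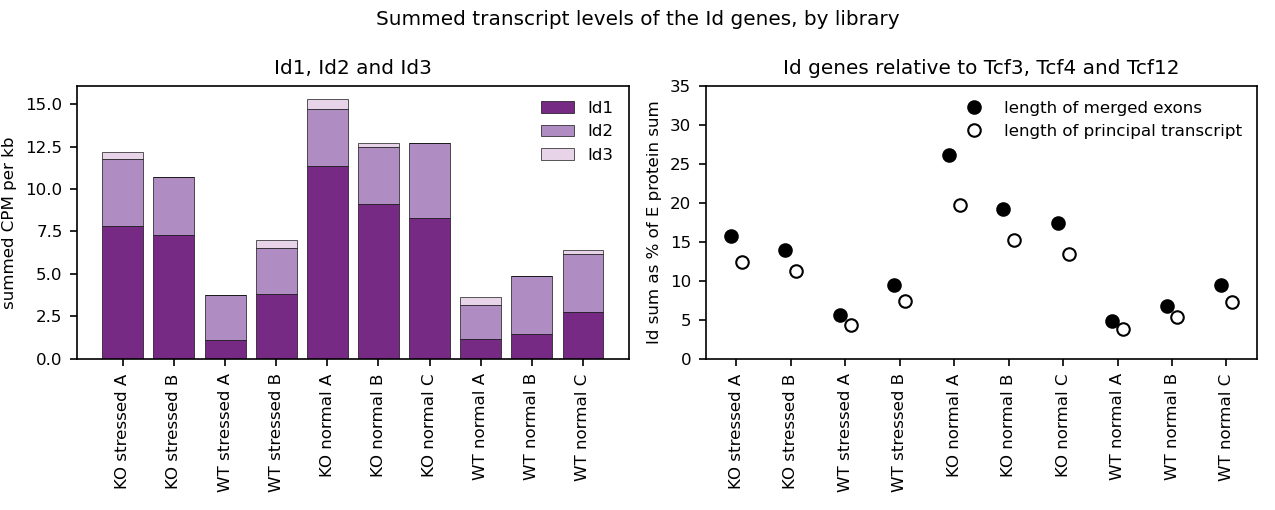
Left, stacked bars of CPM per kilobase of merged exon for Id1, Id2 and Id3 in each library; right, their sum as a percent of the summed E protein genes, on merged exon length (filled) and principal transcript length (open). On merged exon length the percentage is 14.0% to 26.2% with the KO label, against 4.9% to 9.52% with the WT label.

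Tcf3 encodes the E12 and E47 proteins, the best studied E proteins of lymphoid and stem cells, and had the highest level of all members. Located on the minus strand of chromosome 10 at 80409514 to 80433647, it gave log2 CPM values of 8.06 and 8.05 in KO stressed, against 7.84 and 7.94 in WT stressed libraries. In KO normal libraries the values were 7.58, 7.84 and 7.94, against 7.96, 7.95 and 7.86 in WT normal libraries. The KO minus WT difference was 0.17 (SE 0.104) in stressed and -0.14 (SE 0.0848) in normal HSCs. In KO HSCs, stressed libraries were above normal ones by 0.27 (SE 0.0948, unadjusted p = 0.014, adjusted p = 0.15) without overlap, as for 33.1% of all genes. The difference between these effects, 0.31 (SE 0.134, unadjusted p = 0.043, adjusted p = 0.53), did not pass the test.

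Tcf4, known for its role in plasmacytoid dendritic cells, and Tcf12, which encodes HEB and acts in T cell development, showed no called difference. Tcf12 lies on the minus strand of chromosome 9 at 71842688 to 72111871, and Tcf4 on chromosome 18. Tcf4 was 7.24 and 6.82 log2 CPM in KO stressed, against 7.01 and 7.40 in WT stressed libraries, and 7.32, 6.79 and 7.15 in KO normal, against 7.20, 7.05 and 7.07 in WT normal libraries. Its averaged KO minus WT difference was -0.10 (95% interval -0.36 to 0.17). Tcf12 was 6.55 and 6.60 log2 CPM in KO stressed, against 6.47 and 6.69 in WT stressed libraries, and 6.43, 6.40 and 6.69 in KO normal, against 6.86, 6.42 and 6.55 in WT normal libraries. Its averaged difference was -0.05 (95% interval -0.27 to 0.17). Several listed genes overlap Tcf12, most on its own strand and some on the other, and whether counting used strand is not stated. Of the summed E protein level, Tcf3 held 80.6% to 86.4% per kilobase of merged exon and 66.7% to 75.9% on principal transcript length, over the 10 libraries.

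Tal1, also called Scl, is required for the formation of HSCs and works as a bHLH partner of E proteins, and Lyl1 is its close relative. Tal1 lies on the plus strand of chromosome 4 at 115056426 to 115071755 and Lyl1 on the plus strand of chromosome 8 at 84701457 to 84704715. Tal1 was 6.08 and 5.81 log2 CPM in KO stressed, against 6.05 and 6.10 in WT stressed libraries, and 6.03, 5.90 and 5.96 in KO normal, against 5.77, 6.11 and 6.07 in WT normal libraries. The averaged difference of Tal1 was -0.08 (95% interval -0.28 to 0.13), and its 10 libraries spanned 0.34 on the log2 scale, the least of the members.

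Lyl1 was 3.74 and 3.86 log2 CPM in KO stressed, against 3.85 and 4.12 in WT stressed libraries, and 4.00, 4.07 and 4.27 in KO normal, against 3.98, 3.7 and 3.89 in WT normal libraries. In normal HSCs the groups did not overlap, a separation shown by 19.5% of all genes, and the difference was 0.26 (SE 0.167, adjusted p = 0.54). In KO HSCs the stressed libraries were below the normal ones by a log2 difference of -0.31 (SE 0.186, adjusted p = 0.43) without overlap, as for 33.1% of all genes. The difference between the condition effects of the genotypes was -0.44 (SE 0.264, unadjusted p = 0.12). Lyl1 overlaps Nfix on the opposite strand, so reads of the overlap cannot be told apart without strand. Of the summed level of Tal1 and Lyl1 per kilobase, Lyl1 held 31.3% to 43.0%.

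Between conditions no member passed the test in the average over genotypes, where 8.29% of all genes were called. No member had an unadjusted p below 0.05 there, where 3409 of the 15143 genes tested did. Id1 differed by -0.02 (95% interval -0.81 to 0.76). Its stressed minus normal difference was -0.34 (SE 0.506, adjusted p = 0.8) in KO HSCs, without overlap, as for 33.1% of all genes. In WT HSCs it was 0.29 (SE 0.506, adjusted p = 0.83), with overlap. The difference between these effects did not pass the test (-0.62, SE 0.716, adjusted p = 0.83). Within WT HSCs, limma called none of the 7 (background 3.3%). None had an unadjusted p below 0.05, where 2546 of the 15143 genes tested did. Within KO HSCs it also called none (background 4.5%). There 1 (Tcf3) had an unadjusted p below 0.05, as did 2709 of the 15143 genes tested.

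**Figure D4:**
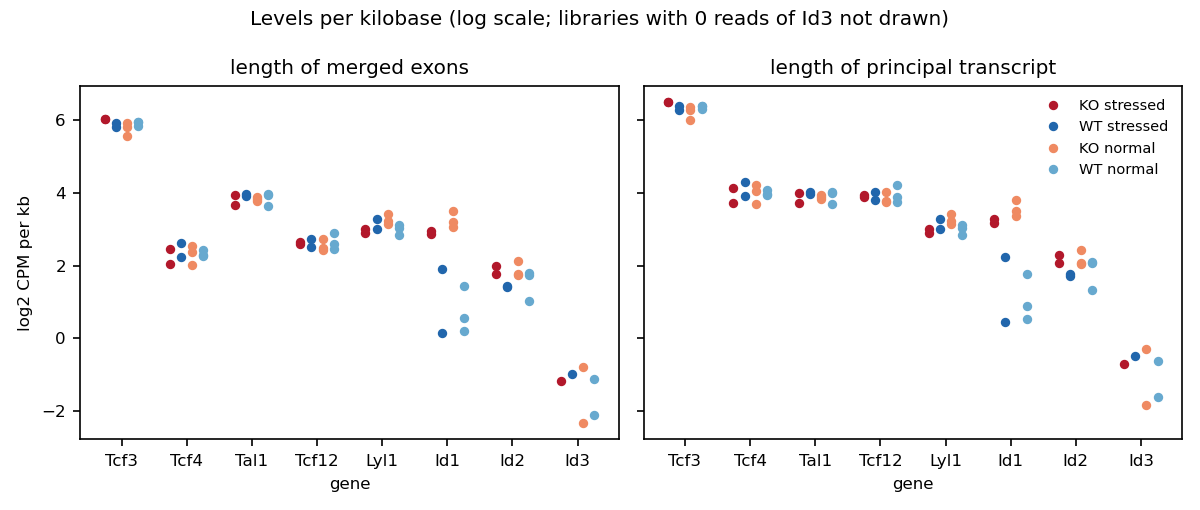
Log2 CPM per kilobase of the 8 genes in each library, coloured by group, on merged exon length (left) and principal transcript length (right); libraries with 0 reads of Id3 are not drawn. Tcf3 is highest on both lengths, with medians of 5.93 and 6.38, and Id3 is lowest.

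By the median log2 CPM per kilobase of merged exon over the 10 libraries, the order was Tcf3 (5.93), Tal1 (3.90), Lyl1 (3.08), Tcf12 (2.59), Id1 (2.39), Tcf4 (2.34) and Id2 (1.76), with Id3 lowest. Tcf3 lay above Tal1, and Tal1 above Lyl1, without overlap, while the ranges of neighbours from Lyl1 down to Id2 overlapped. Id1 had no fixed place beside Tcf12 and Tcf4. It was above both in the 5 KO-labelled libraries and below both in the WT-labelled ones. Tcf12 was above Tcf4 in every library but KO normal A (2.47 against 2.54). On the principal transcript length Tcf3 (6.38) led, and Tcf4 (4.01), Tal1 (3.96) and Tcf12 (3.90) overlapped in their ranges. Lyl1 (3.08), Id1 (2.70) and Id2 (2.07) followed. The place of Tcf4 thus depends on which transcript length is used.

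Within 100000 bases of Id1 the table listed 5 other genes. Mcts2 (152687035 to 152687946), a gene lying inside H13, was 3.39 and 3.37 log2 CPM in KO stressed, against 1.60 and 1.58 in WT stressed libraries. In normal HSCs it was 2.83, 3.41 and 3.24 with the KO label, against 1.96, 2.54 and 2.88 with the WT label. The averaged difference of Mcts2 was 1.25 (SE 0.221, adjusted p = 0.021), and the call was lost when any of 6 libraries was left out (highest adjusted p = 0.086 over all alternatives). Cox4i2 differed by 0.38 (adjusted p = 0.67) and Bcl2l1 by 0.04 (adjusted p = 0.86).

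The genes around these factors were described as lists, by counts. Between genotypes, averaged over conditions, none of 4 tested Hes and Bhlhe repressor genes, of 9 listed, and none of 4 tested tissue-restricted bHLH genes, of 31 listed, was called by limma. The repressor Bhlhe40 differed by 0.24 (SE 0.144, adjusted p = 0.51), Hes6 by -0.08 (SE 0.101), and Bhlhe41 by 0.66 (SE 1.45). Tcf15, which is known from stem cells that are quiescent, differed by 0.05 (SE 0.137), Mesp2 by -0.47 (SE 0.42) and Bhlha15, a plasma cell factor, by 1.22 (SE 1.03). The value for 0 reads enters the differences of Bhlhe41 (KO normal A and B, WT normal A and B) and Bhlha15 (WT stressed B). Bhlha15 differed by 2.57 (SE 1.59) in stressed and -0.13 (SE 1.3) in normal HSCs. Of 24 tested SCL complex partners none passed the test between genotypes, and none of the 22 tested inducers of Id genes did. Of 23 reported targets of SCL and E proteins 1 was lower, as were 0.225% of all tested genes. It was Kit, the stem cell factor receptor, with a difference of -0.22 (SE 0.0367, adjusted p = 0.015). Kit was 1350 and 1390 CPM in KO stressed, against 1440 and 1560 CPM in WT stressed libraries, and 1420, 1490 and 1420 CPM in KO normal, against 1790, 1910 and 1680 CPM in WT normal libraries. The averaged call of Kit was lost without KO stressed A (adjusted p = 0.066) or WT stressed B (0.059), and with no trend in the variance (0.25). In normal HSCs alone Kit differed by -0.31 (SE 0.0465, adjusted p = 0.005), where 1.56% of all tested genes were called. That call was kept under every omission of 1 library and lost with no trend in the variance (0.18). In stressed HSCs alone the difference of Kit was -0.13 (SE 0.0569, adjusted p = 0.54). Of 11 MYC family genes Myc was lower (-0.18, adjusted p = 0.045), and the call was lost under 12 of 20 alternatives, 9 of them omissions of 1 library (all but KO normal C). List medians lay between -0.16 (MYC family) and 0.16 (Hes and Bhlhe repressors), beside 0 over all genes. None of the 14 regulators of Id and E protein stability and activity was called.

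The HSC marker list, which contains Kit, summed to 4560 to 4660 CPM in KO stressed, 4920 to 5060 in WT stressed, 5020 to 5380 in KO normal and 5870 to 6170 CPM in WT normal libraries, and its part in the result was not tested. Of the 8 tested genes of the B and plasma cell list, Jchain and Igkc were higher in KO on average over conditions, where 0.845% of all tested genes were. Both were also higher in stressed HSCs (list median 1.55), where 0.145% of all tested genes were called. In normal HSCs none of the list was called (list median 0.07). The list summed to 388 to 414 CPM in KO stressed and 225 to 252 in WT stressed libraries. Its sum was 259 to 287 CPM in KO normal and 255 to 273 in WT normal libraries. Of the 11 tested granulocyte and monocyte genes, Mpo was higher in KO on average, and none was called in stressed HSCs. The median of the list counts genes with few reads like any other, as for the lists above, while the sums follow the highest genes. It was 1.18 on average, 1.57 in normal HSCs and -0.13 in stressed HSCs. That list summed to 392 to 395 CPM in KO stressed and 400 to 422 in WT stressed libraries. Its sum was 433 to 476 CPM in KO normal and 342 to 380 in WT normal libraries. The sums with the KO label were thus higher in normal and lower in stressed HSCs, without overlap. Of all tested genes, 19.5% separated in normal and 39.1% in stressed HSCs. The 10 erythroid genes summed to 1540 to 1550 CPM in KO stressed and 1580 in WT stressed libraries. Their sum was 1670 to 1760 CPM in KO normal and 1740 to 1780 in WT normal libraries. Of them 1 (Car1) was higher in KO on average over conditions, where 0.845% of all tested genes were. The erythroid list median was 0.07 in this average. None of the 6 tested plasmacytoid dendritic cell genes was called by limma in this average. Their list summed to 213 to 226 CPM in KO stressed and 185 to 193 in WT stressed libraries. In normal HSCs its sum was 206 to 221 CPM with the KO label and 197 to 206 with the WT label. The part of these lists in the genotype differences was not tested.

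Between conditions, averaged over genotypes, 24 of the 102 tested genes of the lists passed the test, where 8.29% of all tested genes did, and 16 of the 24 passed under every alternative. The lists were written with earlier results of these data known, so the shares called are no test of the lists. Of the 14 stability and activity regulators 6 were higher with stress, where 3.94% of all tested genes were, and their median difference was 0.28 against 0 over all genes. Usp1, which removes ubiquitin from Id proteins, was 226 and 229 CPM in KO stressed, 194 and 198 in WT stressed, 182, 151 and 143 in KO normal, and 153, 157 and 157 CPM in WT normal libraries. Its difference was 0.43 (SE 0.0658, adjusted p = 0.0021). Cdc20 (1.0), which activates the anaphase promoting complex, Ccna2 (1.04), Ccne1 (0.72), Fzr1 (0.34) and Cdk2 (0.28) were the others. These genes also act in the cell cycle.

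Of the SCL partners, Gata1, an erythroid and megakaryocyte transcription factor, was 110 and 129 CPM in KO stressed, 115 and 104 in WT stressed, 89.2, 76.4 and 74.3 in KO normal, and 80.5, 86.7 and 76.1 CPM in WT normal libraries. Averaged over genotypes, Gata1 was higher with stress (0.51, SE 0.0826, adjusted p = 0.0031), and Cbfa2t3 (-0.42), Cbfa2t2 (-0.28), Runx1t1 (-2.33) and Erg (-0.39) were lower. Of the targets, Cdkn2c (1.03), Mef2c (0.31) and Gfi1b (0.18) were higher, and Cdkn1c (-0.96), Notch1 (-0.70) and Kit (-0.16) were lower (4.36% of all tested genes were). Of the inducers, Eng (-0.55), a BMP coreceptor, and Egr1 (-1.02) were lower and Tgfb1 (0.41) was higher. Of the MYC family, Mxd3 (1.5) was higher, and Mycn (-0.26) and Mga (-0.21) were lower. The call was lost for Kit without KO stressed A or WT stressed A, for Notch1 without KO stressed B or WT stressed A, and for Cdk2 without KO stressed B or WT stressed B. It was lost for Fzr1 when any of 5 libraries was left out, for Ccne1 any of 6, for Cbfa2t2 and Mga any of 7, and for Gfi1b any of 9. Within KO HSCs, Cdkn1b (-0.80, adjusted p = 0.048) and Max (-0.71, adjusted p = 0.0086) were lower with stress. Cdkn1b was lost under 12 of 21 alternatives, 8 of them omissions of 1 library, and Max was lost without KO stressed B (adjusted p = 0.084). Within WT HSCs the differences were 0.59 for Cdkn1b (unadjusted p = 0.013, adjusted p = 0.15) and 0.12 for Max (adjusted p = 0.69), and the differences between these effects did not pass the test (adjusted p = 0.18 and 0.19). Among the repressors, Bhlhe41 was 1.62 and 0.718 CPM in KO stressed and 1.57 and 1.38 CPM in WT stressed libraries. In normal HSCs Bhlhe41 was at 0 reads or near it in 5 of 6 libraries and 1.25 CPM in KO normal C. Stressed libraries were 3 of the 4 above the filter on low values, so its condition difference, which the value for 0 reads sets, is not given. The megakaryocyte list, with 5 of 9 genes higher and 1 lower in this comparison, summed to 2240 to 2270 CPM in KO stressed, 2210 to 2250 in WT stressed, 1840 to 1980 in KO normal and 2090 to 2200 CPM in WT normal libraries. Of the HSC list 7 of 14 genes were lower and 1 higher, and of the erythroid list 5 of 10 were lower. Over all tested genes 3.94% were higher and 4.36% lower. The part of these lists in the differences was not tested.

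**Figure D5:**
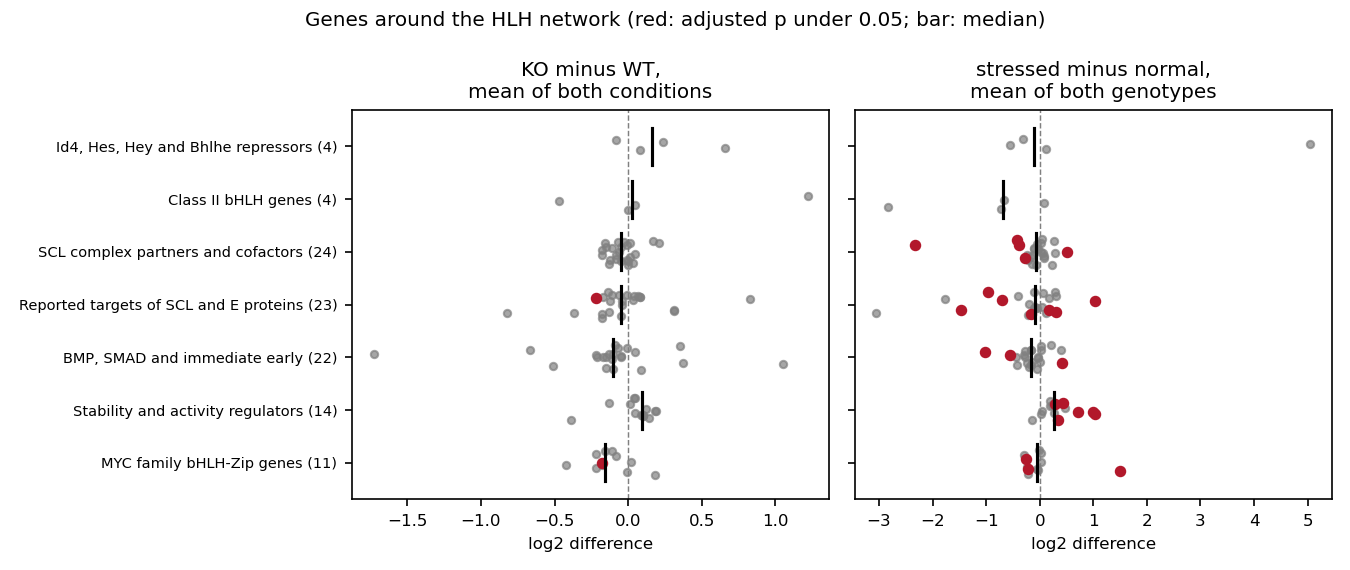
Log2 differences of the tested genes of each pathway list, between genotypes (left) and between conditions (right), on axes of different range; points are genes, red marks an adjusted p under 0.05 and bars are list medians. The 6 called stability and activity regulators, among them Cdc20 and Ccna2, are higher in stressed HSCs.

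Over the 10 libraries the genes whose level ran most like a member's were ranked by Pearson correlation among 9796 genes. For Id1 they were Ndufa6 (r = 0.95), Rpl36a (0.93) and Tmod3 (0.93), and for Id2 Commd6 (0.91), Cggbp1 (0.90) and Lrrc28 (0.87). For Tcf3 they were Ppfia1 (0.93), Dhx15 (0.92) and Focad (0.92), for Tcf4 Pip4k2c (0.94), Slc26a11 (0.93) and Zc3h13 (0.89), and for Tcf12 Phkg2 (0.91), Exd2 (0.90) and Nhlrc1 (0.89). For Tal1 they were St7 (0.88), Mrpl10 (0.88) and Angptl4 (0.86), and for Lyl1 Wdr12 (0.92), Gcnt1 (0.91) and Fkbp5 (0.90). The points share library and normalization, and the highest of 9796 correlations over 10 points is high by selection.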

How the data were processed

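RNA of sorted HSCs was sequenced in 10 libraries. Reads were aligned with Bowtie2 to mm10 and counted with featureCounts, per the submitters' processing notes; versions and strandedness are not given in the sources used here. The deposited values are log2 CPM for 20270 genes, and limma voom is named only in the title of the table. All libraries share 1 distribution, so the authors' values had been quantile normalized, which narrows spread at the top ranks. The values are not counts, so no count model was run. Depth was estimated from the steps between tied low values, and read numbers are estimates.

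Genes above a log2 value of 0 in at least 2 libraries (15143) entered limma 3.58.1 (R 4.3.3) with 4 group means, no covariate, a variance trend and 6 residual degrees of freedom before moderation. Benjamini-Hochberg adjustment ran over all genes tested within each of 7 contrasts, at 0.05. Members, lists and alternatives were chosen with earlier results of these data known. Named list genes are those called in any contrast, or else the 3 with the smallest p between genotypes; for each member, the 3 genes most correlated with it were named. Annotation and sequences came from GENCODE vM21 (GRCm38), which matched 20199 of the IDs (99.6%). The fit was tested on simulated data. Intervals (95%) cover the spread between libraries. A result of the target list is not reported here, though list counts and medians include it.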

Additional observations from a re-analysis of the deposited data

How the results depend on the processing

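The count of members called between genotypes in normal HSCs was 1, and it was 0 with no trend in the variance; over single-library omissions it ranged from 0 to 1. Averaged over conditions it was also 1, and 0 with no trend, with a range of 0 to 1 over omissions. The Id1 difference stayed positive under every alternative run, at 2.01 to 2.86 in normal HSCs, 1.0 to 2.77 in stressed HSCs (adjusted p = 0.066 to 0.64) and 1.74 to 2.64 on average (adjusted p = 0.0048 to 0.11). Libraries sharing a letter did not deviate together over all genes (correlations -0.02 to 0.04). Such correlations cannot show whether the letters pair samples, and the labels do not say. With a replicate block Id1 stayed called (adjusted p = 0.038 in normal HSCs and 0.034 on average). Over the alternatives, the number of genes called among all genes ranged from 45 to 400 in normal HSCs (236 as reported), 0 to 54 in stressed HSCs (22) and 22 to 287 in the genotype average (162). Between conditions it ranged from 253 to 872 in WT (500), 249 to 1067 in KO (682) and 773 to 1891 on average (1256), and for the interaction from 1 to 26 (3). Groups of 2 and 3 libraries limit the precision. Id3 averaged 12.9 reads, and its differences had an SE of at least 1.76 on the log2 scale.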
